A study of Mus musculus with 5 samples.

Results

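The 9 genes described here write, remove or read methylation of cytosine in DNA, or can supply a cosubstrate for its oxidation (Idh1). They are the oxidases Tet1, Tet2 and Tet3, the methyltransferases Dnmt1, Dnmt3a and Dnmt3b, the binding proteins Uhrf1 and Uhrf2, and the isocitrate dehydrogenase Idh1. The set is given by gene name and makes up 9 of the 24399 genes in the count table. Each gene is represented by its RefSeq transcript with the most reads. All 9 passed the filter on low counts.

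RNA sequencing was done on LSK cells (Lin-, Sca1+, cKit+) of the bone marrow, a sorted population rich in blood stem cells and early progenitors. The mice were C57BL/6 and 12 months old. The groups were 3 libraries titled KO and 2 titled WT. KO refers to a germ-line knockout of Aid, and the genotype of the WT libraries is wild type. The genotype field of the KO libraries reads Aid+/-, a heterozygous genotype, while their titles read KO, and the study's design text lists wild-type, heterozygous and homozygous mice. The titles of all 5 libraries also carry the prefix AIDTET, which the labels do not explain. The knockout is germ-line and so not limited to the sorted cells. The question behind the comparison is how loss of Aid alters these cells.

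"KO" is used below for the libraries titled so. Total counts, with 1 transcript per gene, were 36060320, 39423495 and 39691066 in KO libraries 1, 2 and 3 and 29964556 and 38674416 in WT libraries 1 and 2. KO library 1 stood apart from the rest by low values of long transcripts, and results that rest on it are given with and without it.

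Methyl groups on cytosine, mostly where it precedes guanine, are set on new sites by DNMT3A and DNMT3B and copied to the new strand after replication by DNMT1, which UHRF1 brings to hemimethylated DNA. TET enzymes oxidise 5-methylcytosine to 5-hydroxymethylcytosine and further products, with 2-oxoglutarate as a cosubstrate that IDH1 can supply. UHRF2 resembles UHRF1 in its domains and binds 5-hydroxymethylcytosine. In blood, TET2 and DNMT3A are among the genes most often mutated in clonal expansion of stem cells.

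Of the 9 genes, Uhrf2 rose in the KO libraries and the other 8 did not pass the test over all 14565 genes tested. That is 1 of 9 higher and 0 of 9 lower, where 1.97% of all tested genes were called, 0.79% of them higher and 1.18% lower. At an unadjusted p under 0.05 there were 4 of 9 (Uhrf2, Tet2, Idh1 and Tet1) against 13.8% of all tested genes, and both DESeq2 and limma called 2 of 9 (Uhrf2 and Tet2), with 3.95% and 4.28% of all genes called. The groups did not overlap for 5 of the 9, with Uhrf1 and Uhrf2 higher and Tet1, Tet2 and Idh1 lower in every KO library. Such separation was found for 32.8% of all genes, 16.5% higher and 16.3% lower. The median log2 fold change of the 9 was -0.03, beside 0.001 over all genes tested. Levels are in CPM, counts scaled to the library total after composition scaling, and log2 fold changes are KO against WT with the standard error of edgeR's quasi-likelihood fit and an interval at 95% that is not adjusted for the number of genes. No label ties a library to an animal of its own, so the p-values measure the spread between these libraries, which may be technical. In sorted bulk RNA, fewer cells that express a gene and less RNA per cell cannot be told apart.

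**Figure D1:**
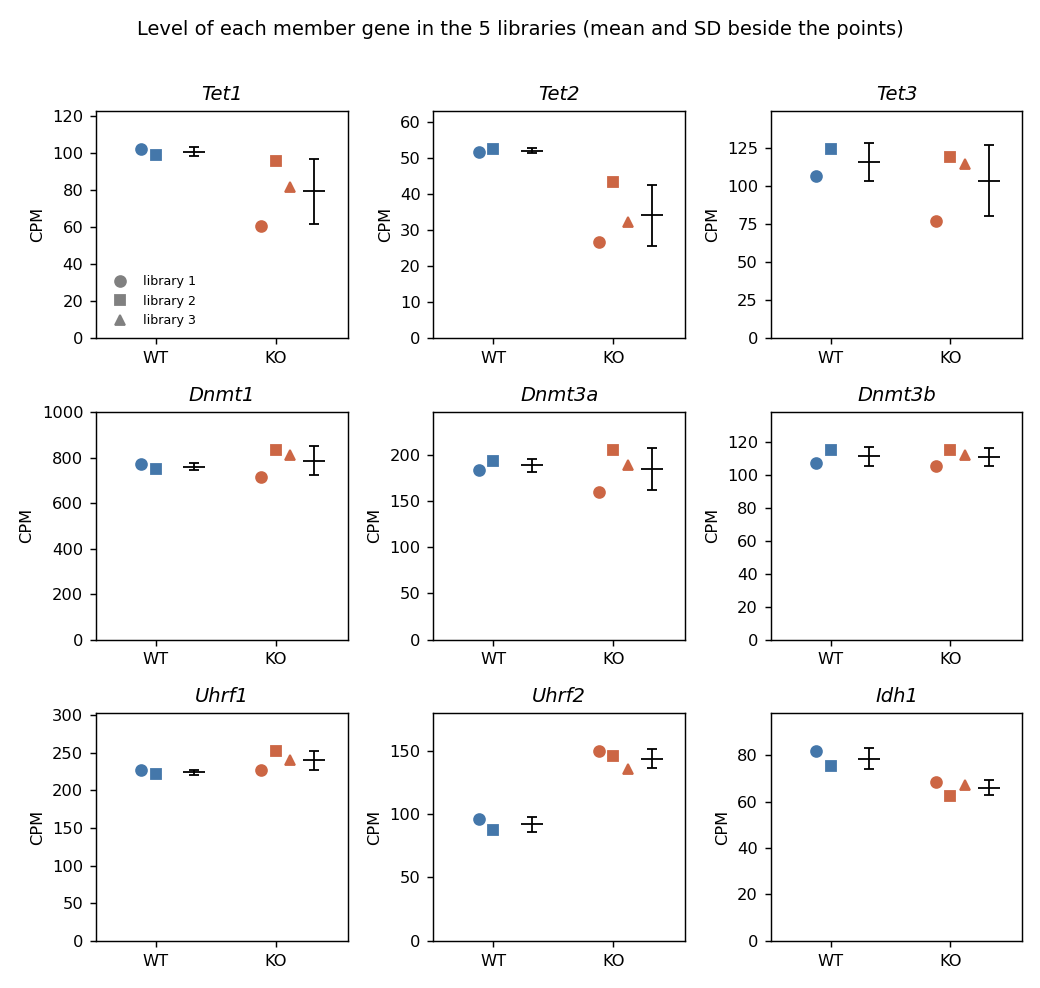
CPM (vertical axes, from 0) of each of the 9 genes in the WT (blue) and KO (orange) libraries, with symbols for the library number and the mean with SD drawn in black beside them. Uhrf2 stood at 87.6 to 96.1 CPM in WT and at 136 to 149.6 CPM in KO libraries, while the groups of Tet3 and the 3 methyltransferases overlapped.

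Uhrf2, a ring-finger protein that binds modified cytosine, was the member with the clearest difference. It was read at 96.1 and 87.6 CPM in WT libraries 1 and 2. In KO libraries 1, 2 and 3 it was read at 149.6, 146 and 136 CPM. All 3 KO libraries were above both WT libraries, and the gap between the groups was wider than the range within either. The mean rose 1.57-fold, from 91.9 ± 5.99 (SD, n = 2) to 144 ± 7.17 CPM (SD, n = 3), a log2 fold change of 0.65 ± 0.09 with an interval of 0.44 to 0.85 (edgeR, adjusted p = 0.0041). By p-value it ranked 47 among all 14565 genes. The call rested on both WT libraries: without WT library 1 the log2 fold change was 0.72 (adjusted p = 0.151) and without WT library 2 it was 0.58 (adjusted p = 0.137), each time with a single WT library assumed to vary like the others. At 2881 to 5706 reads per library, counting error was small beside this difference.

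Uhrf1, the paralogue that guides maintenance methylation, was read at 226 and 221 CPM in WT libraries 1 and 2 and at 227, 252 and 241 CPM in KO libraries 1, 2 and 3. The groups were apart by less than 1 CPM, between WT library 1 and KO library 1. The log2 fold change was 0.10 ± 0.08, with an interval of -0.08 to 0.28 (edgeR, adjusted p = 0.655). The upper bound of that interval lies below the lower bound for Uhrf2; the difference between the fold changes was not tested. Within each library the level of Uhrf2 per kilobase of transcript was 0.418 and 0.39 times that of Uhrf1 in WT libraries 1 and 2. In KO libraries 1, 2 and 3 the same ratio was 0.649, 0.571 and 0.555. Uhrf1 therefore stayed the more abundant of the pair in all 5 libraries, while the ratio went from 0.404 ± 0.0196 (SD, n = 2) to 0.592 ± 0.0503 (SD, n = 3) without overlap. This ratio does not depend on the scaling between libraries and was not tested separately.

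Dnmt1, the maintenance methyltransferase, was read at 771 and 749 CPM in WT and at 716, 835 and 810.4 CPM in KO libraries 1, 2 and 3. KO library 1 was the lowest of the 5 and KO library 2 the highest, so the WT values fell inside the KO range. The log2 fold change was 0.05 ± 0.08, with an interval of -0.13 to 0.23 (edgeR, adjusted p = 0.861). Its proportion to Uhrf1 varied little. Per kilobase, Dnmt1 stood at 2.14 and 2.13 times Uhrf1 in WT libraries 1 and 2. The ratio was 1.98, 2.08 and 2.11 in KO libraries 1, 2 and 3, a small difference without overlap that was not tested. The transcripts of Dnmt1 and Uhrf1 are 5.54 and 3.48 kb long, and KO library 1, with the lowest ratio, also had low values of long transcripts. Any part of transcript length in this ratio was not tested. The microRNA gene Mir7081 overlaps Dnmt1 on the same strand, so reads of the pair cannot be told apart there; its mean was 4.61 CPM in KO and 3.93 CPM in WT libraries.

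The upstream sequences of the maintenance pair and of Uhrf2 are shown beside the ratios of their levels. That of Dnmt1 to Uhrf1 stayed within 1.98 to 2.14 in all 5 libraries and was slightly lower in every KO library. That of Uhrf2 to Uhrf1 was higher in every KO library. Whether the letters bear on either ratio was not tested. The sequences cover the 250 bases before an annotated start in RefSeq, build GRCm38.p6, read 5′ to 3′ on the gene's strand. That build is not the build of the counts. Capitals mark matches to 3 spellings of the E2F motif, TTTGGCGC, TTTCCCGC and TTTCGCGC, searched on both strands. Of several annotated starts of Dnmt1 (3) and Uhrf1 (2), the one holding a match is shown, at chr9:20952624-20952873 (minus strand) for Dnmt1 and chr17:56304063-56304312 (plus strand) for Uhrf1. Both of these windows lie downstream of another annotated start of the same gene. They can therefore hold transcribed or coding sequence and need not be promoter sequence alone. Uhrf2 has 1 annotated start, at chr19:30030263-30030512 (plus strand).
Dnmt1: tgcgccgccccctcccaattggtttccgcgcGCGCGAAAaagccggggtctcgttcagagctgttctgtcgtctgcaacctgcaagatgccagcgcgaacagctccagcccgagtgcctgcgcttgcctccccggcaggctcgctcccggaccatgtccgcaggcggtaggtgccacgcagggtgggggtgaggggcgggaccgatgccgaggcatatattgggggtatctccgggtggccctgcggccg
Uhrf1: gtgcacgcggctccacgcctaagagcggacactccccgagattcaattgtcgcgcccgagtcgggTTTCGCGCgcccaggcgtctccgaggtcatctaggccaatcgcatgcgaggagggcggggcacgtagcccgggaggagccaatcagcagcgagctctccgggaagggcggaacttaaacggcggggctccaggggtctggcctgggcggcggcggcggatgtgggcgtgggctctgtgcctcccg
Uhrf2: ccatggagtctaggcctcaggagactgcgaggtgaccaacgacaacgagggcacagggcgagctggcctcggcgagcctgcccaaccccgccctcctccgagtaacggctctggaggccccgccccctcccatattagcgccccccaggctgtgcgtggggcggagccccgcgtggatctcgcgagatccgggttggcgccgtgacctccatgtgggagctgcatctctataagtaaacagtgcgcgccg
TTTCGCGC was present once in each of the first and second sequences, on opposite strands: GCGCGAAA in Dnmt1 is its reverse complement. That spelling occurs in 0.256% of the 32817 upstream windows of this length in the table, and any of the 3 spellings in 1.53%. Counted per gene over all its starts, the shares are 0.30% and 1.77% of 26994 genes. As the windows shown were picked for holding a match, these shares are no test of it. No such letters were found in the Uhrf2 window or in those of the other 6 genes. The windows shown held 26, 30 and 23 CpG dinucleotides for Dnmt1, Uhrf1 and Uhrf2; the other windows of Dnmt1 held 2 and 7, and the other of Uhrf1 held 10. The median over all windows was 6, and the single window of Tet2 held 51, more than 99.9% of windows. An ETS motif (CCGGAAGT), present in 2.88% of windows, matched in none of the members' windows on either strand. A match describes the letters only; binding was not measured.

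Dnmt3a, a de novo methyltransferase, was read at 183 and 194 CPM in WT and at 159.7, 205 and 189 CPM in KO libraries 1, 2 and 3, and the WT values lay within the KO range. Its log2 fold change was -0.03 ± 0.10, with an interval of -0.26 to 0.20 (edgeR, adjusted p = 0.939). Dnmt3b, the other de novo enzyme, was read at 107 and 115 CPM in WT and at 105, 115 and 113 CPM in KO libraries, which again overlapped. Its log2 fold change was -0.0046 ± 0.092, with an interval of -0.20 to 0.19 (edgeR, adjusted p = 0.994). The signs of both near-zero values changed with the settings listed in the closing section. The make-up of the methyltransferases was also alike in the groups. Dnmt1 made up 75.2% and 73.4% of their summed level per kilobase in WT and 75.2%, 75.0% and 75.4% in KO libraries 1, 2 and 3. Dnmt3a made up 10.6% to 12.0% and Dnmt3b 13.3% to 14.5% over the 5 libraries. The size of these shares depends on the transcript length used for each gene, and annotated Dnmt3a transcripts differ widely in length.

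Tet2 had the lowest log2 fold change of the 9, but it did not pass the test. It was read at 51.5 and 52.5 CPM in WT and at 26.8, 43.3 and 32.2 CPM in KO libraries 1, 2 and 3. Every KO library was below both WT libraries, and the KO values were themselves spread from 26.8 to 43.3 CPM. The means were 52.0 ± 0.741 (SD, n = 2) and 34.1 ± 8.44 CPM (SD, n = 3), a log2 fold change of -0.61 ± 0.17 with an interval of -0.98 to -0.24 (edgeR, adjusted p = 0.11). The side of the threshold depended on the setting: adjusted p was 0.0397 with DESeq2, 0.0238 with limma and sample weights, 0.0475 with no count filter and 0.0101 without KO library 2. Over all 16 alternatives it ran from 0.0101 to 0.575, and the log2 fold change stayed between -0.82 and -0.46.

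Tet1 was read at 102 and 99.03 CPM in WT and at 60.5, 95.5 and 81.8 CPM in KO libraries 1, 2 and 3. KO library 2 was within 4 CPM of WT library 2, and KO library 1 was far below. Its log2 fold change was -0.34 ± 0.15, with an interval of -0.68 to -0.007 (edgeR, adjusted p = 0.351), and it was -0.18 without KO library 1. Tet3 was read at 107 and 125 CPM in WT and at 77.0, 119 and 115 CPM in KO libraries, so that KO libraries 2 and 3 lay between the WT values. Its log2 fold change was -0.16 ± 0.16, with an interval of -0.52 to 0.20 (edgeR, adjusted p = 0.741), and it was 0.01 without KO library 1. Of the summed TET level per kilobase, Tet2 made up 24.9% and 23.8% in WT and 20.6%, 21.2% and 17.8% in KO libraries 1, 2 and 3, which did not overlap. Tet3 made up 43.5% and 47.5% in WT and 49.8%, 49.0% and 53.3% in KO libraries. The share of Tet1 overlapped, at 28.7% to 31.6% in WT and 28.9% to 29.8% in KO libraries. These shares are descriptions and were not tested.

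**Figure D2:**
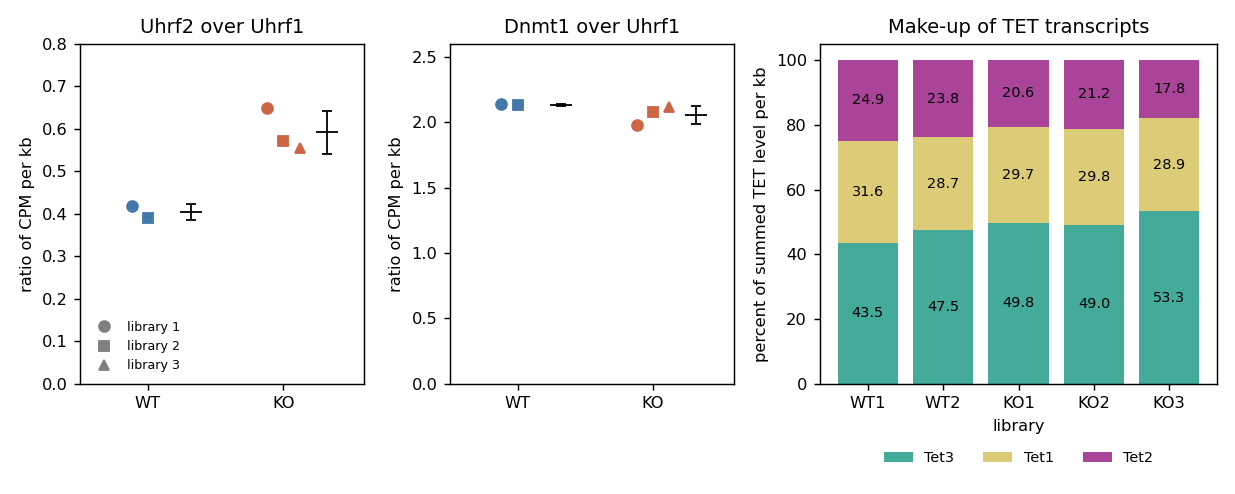
Left and middle: ratio of CPM per kilobase within each library, for Uhrf2 over Uhrf1 and Dnmt1 over Uhrf1, with library symbols, mean and SD. Right: percent of the summed TET level per kilobase held by Tet3, Tet1 and Tet2 in each library, where Tet2 was 23.8% to 24.9% in WT and 17.8% to 21.2% in KO libraries.

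KO library 1 stood apart by transcript length, which bears on the TET genes. Among 544 genes with transcripts over 8 kb, its median deviation from each gene's mean over the 5 libraries was -0.19 on the log2 scale, while those of the other 4 libraries ran from 0.03 to 0.07. It was the lowest library for 57.9% of those genes, against 27.0% of all 12729 genes of at least 1 CPM. The transcripts of Tet1, Tet3, Tet2 and Dnmt3a were 14.4, 10.9, 9.18 and 8.74 kb long, and KO library 1 was the lowest library for all 4. It was also the lowest for Dnmt1 and Dnmt3b, with transcripts of 5.54 and 4.32 kb and smaller deviations of -0.12 and -0.08. With an offset that removed each library's trend with length, the log2 fold change was -0.54 for Tet2 (adjusted p = 0.075), -0.25 for Tet1 (adjusted p = 0.274) and -0.08 for Tet3 (adjusted p = 0.813). Without KO library 1 that of Tet2 was -0.46 (adjusted p = 0.0546). Uhrf2, with a transcript of 3.54 kb, stayed at 0.65 with the offset (adjusted p = 0.00199) and at 0.62 without KO library 1 (adjusted p = 2.45e-04).

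**Figure D3:**
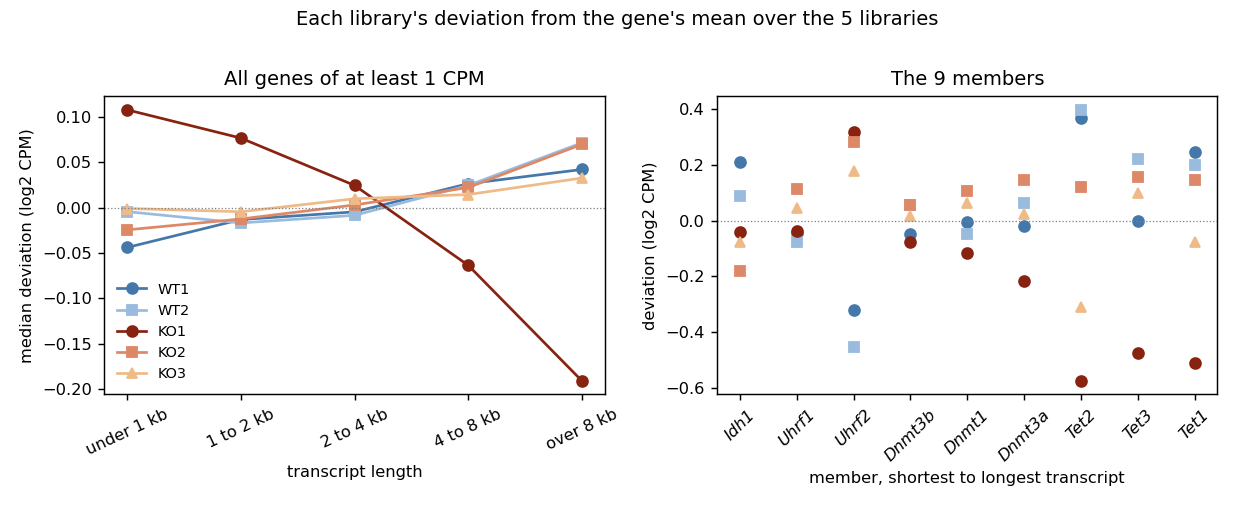
Deviation of each library from the gene's mean over the 5 libraries, in log2 CPM: medians by transcript length over all genes of at least 1 CPM (left) and single values for the 9 members, ordered from the shortest to the longest transcript (right). KO library 1 fell to -0.19 for transcripts over 8 kb and was the lowest library for Tet1, Tet2, Tet3 and Dnmt3a, and also for the shorter Dnmt1 and Dnmt3b.

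Idh1, the cytosolic isocitrate dehydrogenase, was read at 81.7 and 75.2 CPM in WT and at 68.6, 62.3 and 67.0 CPM in KO libraries 1, 2 and 3. All KO libraries were below both WT libraries. The means were 78.4 ± 4.61 (SD, n = 2) and 66.0 ± 3.28 CPM (SD, n = 3), with a log2 fold change of -0.25 ± 0.10 and an interval of -0.47 to -0.03 (edgeR, adjusted p = 0.294). It passed in 0 of 16 alternatives, where adjusted p ran from 0.132 to 0.756 and the log2 fold change from -0.31 to -0.18.

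**Figure D4:**
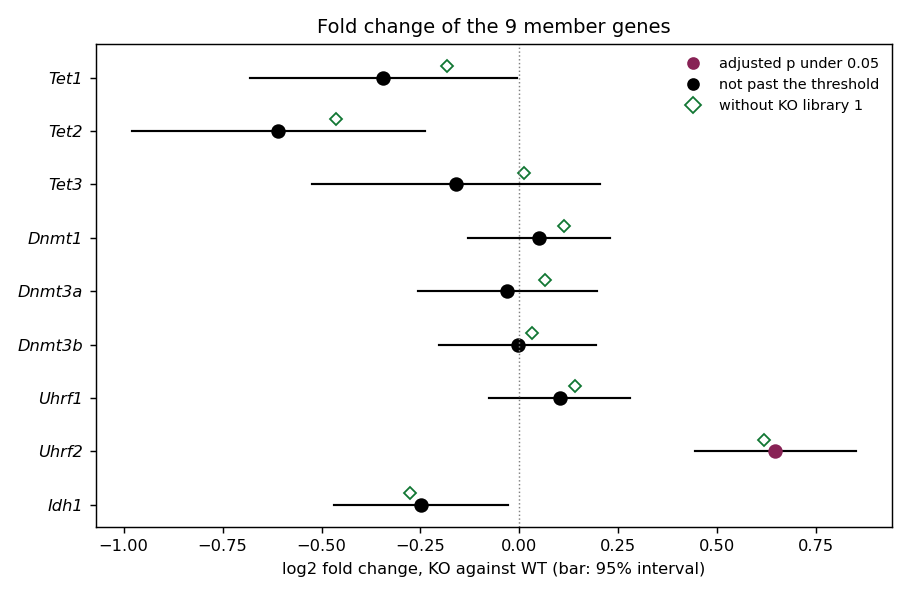
Log2 fold change, KO against WT, of the 9 genes with 95% intervals that are not adjusted for the number of genes (horizontal bars). The interval of Uhrf2, 0.44 to 0.85, is the only one past the threshold after adjustment; open diamonds give the value without KO library 1, which lies nearer to 0 for Tet1 and Tet2 and at 0.01 for Tet3.

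Per kilobase, the order of levels in WT libraries was Dnmt1 (137 ± 2.81 CPM per kilobase, SD, n = 2), Uhrf1 (64.2 ± 1.07), Idh1 (34.1 ± 2.003), Uhrf2 (26.0 ± 1.69), Dnmt3b (25.8 ± 1.31), Dnmt3a (21.6 ± 0.852), Tet3 (10.6 ± 1.14), Tet1 (7.002 ± 0.156) and Tet2 (5.67 ± 0.0807). Of these neighbours, with the transcripts used, Uhrf2 and Dnmt3b did not differ beyond their spread, while all others did. The place of Dnmt3a depends on the transcript picked. A transcript of 5424 bases held 5314 and 7367 reads in WT libraries 1 and 2, beside 5495 and 7576 for that of 8737 bases used here. Per kilobase of the shorter transcript, Dnmt3a would stand higher. In KO libraries Uhrf2, at 40.7 ± 2.03 CPM per kilobase (SD, n = 3), stood above Idh1, at 28.7 ± 1.42. Dnmt3b followed at 25.7 ± 1.199 and Dnmt3a at 21.1 ± 2.65. Uhrf2 and Idh1 thus changed places between the groups, with no overlap in either. Dnmt1 was above 97.4% of the 14306 tested genes with a known length, Uhrf1 above 92.0% and Uhrf2 above 81.2%, whereas Tet3, Tet1 and Tet2 were above 49.2%, 38.7% and 33.6%.

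The genes with profiles over the 5 libraries nearest to Uhrf2, by root mean square difference of centred log2 CPM among 9781 genes of at least 10 CPM, were Cdca3 (0.0412), Mtrf1l (0.0591) and Chordc1 (0.0601), where the median gene lay at 0.337. Cdca3, a cell division gene, had a log2 fold change of 0.59 (edgeR, adjusted p = 0.012) and Chordc1, an HSP90-binding chaperone, one of 0.59 (adjusted p = 0.00434). Mtrf1l, a mitochondrial release factor, had one of 0.56 (adjusted p = 0.109). For Tet2 the nearest were Rnf150 (0.0585), the receptor-like kinase Ptk7 (0.0638) and Gm28042 (0.0686), with the median gene at 0.405. None of these 3 passed, at adjusted p of 0.113, 0.0522 and 0.187. Since the nearness uses the same 5 libraries, it is a description of profiles only.

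Neighbours of Uhrf2 on chromosome 19 did not move with it. The 3 nearest tested genes on each side in GRCm38 order, namely Ermp1, 9930021J03Rik and Ranbp6 before it and Prkg1, Cstf2t and Asah2 after it, had log2 fold changes from -0.44 to 0.01. The lowest adjusted p among these 6 was 0.266 (edgeR), and none overlaps Uhrf2. Beside Tet2 on chromosome 3, the neighbour Cxxc4, which encodes a CXXC-domain protein, was read at 0.302 CPM in KO and 0.279 CPM in WT libraries. Ccar1, the nearest tested gene before Tet1 on chromosome 10, was at 203 CPM in KO and 158 CPM in WT libraries. It rose with a log2 fold change of 0.37 (edgeR, adjusted p = 0.0485).

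In the lists of related genes described below, with the targeted gene left aside, the 1 call made with edgeR was Polb, higher in KO libraries. Counts at an unadjusted p under 0.05 are read against all tested genes, of which 6.76% were higher and 7.02% lower at that p. Among 11 readers of methylated cytosine (among them Mbd and Zbtb proteins), 0 rose and 0 fell with edgeR, and 0 passed with DESeq2 or limma. At an unadjusted p under 0.05, 0 were higher and 2 lower, and the median log2 fold change was -0.14. The methyl-CpG binding protein Mbd2 stood at 126 ± 8.55 against 117 ± 3.59 CPM (KO against WT). Among 15 partners and relatives of the methyltransferases, such as Hells, Usp7 and Nsd1, 0 passed with any of the 3 tools, 0 had an unadjusted p under 0.05 and the median was 0.01. Usp7, a deubiquitinase that acts on UHRF1 and DNMT1, stood at 359 ± 3.32 against 369.8 ± 4.23 CPM, and the histone methyltransferase gene Nsd1 at 365 ± 28.5 against 366 ± 14.4 CPM.

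Of 12 partners of the TET enzymes, Wt1 and Prdm14 were too low to be tested. Among the other 10, 0 passed with edgeR, DESeq2 or limma, 4 were lower and 0 higher at an unadjusted p under 0.05 (7.02% and 6.76% of all genes), and the median log2 fold change was -0.16. The corepressor Sin3a stood at 239 ± 7.69 against 224 ± 16.02 CPM. Runx1, a haematopoietic transcription factor, stood at 197 ± 20.1 against 233 ± 0.798 CPM, with a log2 fold change of -0.24 (edgeR, adjusted p = 0.268). Among 17 genes of 2-oxoglutarate, succinate and fumarate metabolism, Idh1 included, 0 passed with any of the 3 tools, and 1 was higher and 1 lower at an unadjusted p under 0.05. Their median was 0.03. The succinate dehydrogenase subunit Sdha stood at 526 ± 17.0 against 504 ± 13.0 CPM and the dehydrogenase Ogdh at 466 ± 36.5 against 480.2 ± 8.86 CPM.

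Of 15 genes of the methyl donor cycle, which supplies S-adenosylmethionine, 0 passed with edgeR or DESeq2. Mthfd1, a folate enzyme, passed with limma, and 1 gene of the list rose without KO library 1. At an unadjusted p under 0.05, 5 were higher and 0 lower (6.76% and 7.02% of all genes), and the median was 0.03. Mthfd1 stood at 249.3 ± 16.7 against 208 ± 2.17 CPM, with a log2 fold change of 0.26 (edgeR, adjusted p = 0.176). Ahcyl1 stood at 223 ± 5.02 against 227 ± 11.2 CPM. Of 15 genes that remove oxidised or deaminated cytosine, the repair polymerase Polb rose, at 29.0 ± 0.739 against 16.7 ± 3.32 CPM (log2 fold change 0.79, edgeR, adjusted p = 0.0259). It was the 1 call of that list, where 0 fell and 2 were higher and 0 lower at an unadjusted p under 0.05, and it was lost without KO library 3 or either WT library. The most abundant of these genes, Parp1 and Apex1, stood at 540 ± 10.03 against 530 ± 30.3 CPM and at 179 ± 9.82 against 169 ± 3.05 CPM. The deaminase genes Apobec3 and Apobec1 stood at 326 ± 4.77 against 301 ± 11.7 CPM and at 25.6 ± 1.88 against 33.8 ± 0.572 CPM (edgeR, adjusted p = 0.576 and 0.189). Apobec2 and Apobec4 were too low to be tested.

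Dnmt1 and Uhrf1 are known to be expressed in S phase, and S phase genes were read beside them. Of 25 such genes 0 passed with edgeR, DESeq2 or limma, and 4 were higher and 0 lower at an unadjusted p under 0.05. In 12 of the 25 every KO library was above both WT libraries, and in 0 the reverse, where 16.5% and 16.3% of all genes did so. Their median log2 fold change was 0.11, beside 0.10 for Uhrf1, 0.05 for Dnmt1 and 0.65 for Uhrf2. The replication helicase subunit Mcm6 stood at 1013 ± 38.2 against 928 ± 66.3 CPM and the ribonucleotide reductase subunit Rrm1 at 648 ± 34.3 against 608 ± 68.0 CPM.

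Markers of the labelled cell type were present in all libraries. The 11 LSK and stem cell markers summed to 4655 to 4842 CPM in KO and 4722 to 4750 CPM in WT libraries, and 0 were called. Kit and Ly6a, which encode the sorting antigens cKit and Sca1, were read at 1086 to 1227 and 74.9 to 105 CPM. T cell markers (5 genes) summed to 9.29 to 12.3 CPM and B cell markers (5) to 43.2 to 56.6 CPM over the 5 libraries, with overlapping groups and 0 called. NK cell markers (5) summed to 115 to 130.2 CPM in KO against 142 to 143 CPM in WT libraries, without overlap, and Klrb1c fell (log2 fold change -1.02, edgeR, adjusted p = 0.00826). Most of that sum was Nkg7, at 93.1 to 104 CPM over the 5 libraries, which was not called (log2 fold change 0.01, edgeR, adjusted p = 0.98). The other 3 were under 1 CPM on average, and of these Gzma and Prf1 had log2 fold changes above 0 (0.22 and 0.55).

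Markers of other blood lineages differed between the groups. Erythroid markers (10 genes) summed to 342 to 441 CPM in KO against 198 to 224 CPM in WT libraries, and 5 rose. Car1 was the largest part of that sum, and Epor had a log2 fold change of the other sign, -0.15, and did not pass (edgeR, adjusted p = 0.842). Neutrophil and monocyte markers (11 genes) summed to 3254 to 3992 against 4687 to 5025 CPM, and 4 fell. Most of that sum was Mpo, at 2219 to 2869 against 3103 to 3443 CPM, which was not called (log2 fold change -0.39, edgeR, adjusted p = 0.0747). Megakaryocyte markers (6 genes) summed to 346 to 554 against 614 to 706 CPM, and 2 fell, Itga2b and Gp1ba. Most of that sum was Vwf and Itga2b; the platelet genes Pf4 and Ppbp had log2 fold changes of the other sign, 0.79 and 1.46, and did not pass (edgeR, adjusted p = 0.196 and 0.277). Stromal and endothelial markers (6 genes) summed to 199.5 to 251 against 314 to 336 CPM, and 2 fell, Pecam1 and Pdgfrb, while 3 of the 6 were under 1 CPM on average. Kdr and Cxcl12 had log2 fold changes of the other sign, 0.45 and 0.42, and did not pass (edgeR, adjusted p = 0.502 and 0.938). Mast cell and basophil markers (5 genes) overlapped, at 58.4 to 74.4 against 50.2 to 62.2 CPM, with 1 higher. Dendritic cell markers (5 genes) overlapped too, at 535 to 802 against 596 to 651 CPM, with 0 called; without Flt3, which is also an LSK marker here, the other 4 summed to 133 to 163 CPM in KO against 115 to 121 CPM in WT libraries, without overlap. None of these markers was at 0 in every library. The erythroid sum, and the dendritic sum without Flt3, were higher in every KO library, as Uhrf2 was, and the NK, neutrophil and monocyte, megakaryocyte and stromal sums were lower, as Tet2, Tet1 and Idh1 were. Their part in those differences was not tested.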

How the data were processed

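RNA of sorted LSK cells was sequenced after stranded mRNA library preparation, per the labels' protocols. The authors deposited raw read counts per RefSeq transcript for 5 libraries. The tools were featureCounts, Subread 1.4.5-p1 and STAR, with the build mm9 (NCBIM37), per the submitters' processing notes. How strand and shared reads were handled is not given in the sources used here. Titles gave the groups.

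Symbols came from RefSeq (33485 rows) and GENCODE (188) tables of GRCm38; 189 rows with neither, 0.362% to 0.459% of counts, kept their IDs. The transcript with the most counts was kept per gene, leaving 24399 genes and 29964556 to 39691066 counts per library, so that the floor of 3 counts equals 0.0760 to 0.10 CPM. Lengths are those of matching GENCODE transcripts. Testing used edgeR 4.0.16 in R 4.3.3, after filterByExpr and TMM scaling (robust quasi-likelihood, two-sided, Benjamini-Hochberg over all genes, threshold 0.05). Alternatives used DESeq2 1.42.0, limma 3.58.1 (voom with sample weights), other scalings, no filter, summed or all transcript rows, a length offset, a replicate block, a looser threshold of 0.10 and each library left out. Named genes were the members and, of each list, genes past the threshold and the 2 most abundant, plus the 3 nearest profiles of the 2 members with the smallest p. Some items under this rule, and the check of the targeted gene, are not reported here. Neighbours and windows were described as well. The single markers named, the neighbour Ccar1 and the dendritic sum without Flt3 were chosen after their values were seen. The members and lists were chosen with earlier results of these data known.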

Additional observations from a re-analysis of the deposited data

How the results depend on the processing

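Uhrf2 kept its direction in 16 of 16 alternatives and passed in 14, the exceptions being each WT library left out. Of the other members, Tet1, Tet3, Dnmt1, Dnmt3a, Dnmt3b, Uhrf1 and Idh1 passed in 0 of 16. Tet2 kept its direction in 16 and passed in 4: its log2 fold change was -0.60 with no count filter, -0.56 with limma-voom and -0.61 with DESeq2, and without 1 library it ranged from -0.82 to -0.46. With 1 library left out that of Uhrf2 ranged from 0.58 to 0.72. Members called numbered 2 with DESeq2, with limma and with no count filter, and 0 to 2 with 1 library left out. Signs changed for values near 0: Dnmt3a was 0.0466 with the length offset and 0.0167 with limma, Dnmt3b was 6.09e-04 with no count filter, 0.0199 with the length offset and 0.0140 with limma, and with 1 library left out Dnmt3a ranged from -0.12 to 0.0634, Dnmt3b from -0.0496 to 0.0492 and Tet3 from -0.28 to 0.0128. The cause was not tested. Genes changed, higher and lower across the transcriptome numbered 287, 115 and 172, and 575, 264 and 311 with DESeq2, 624, 247 and 377 with limma, 455, 200 and 255 with no count filter, 449, 182 and 267 with every transcript row tested, 454, 192 and 262 at adjusted p under 0.10 and 160, 54 and 106 with the replicate block. Leaving out single libraries gave ranges of 6 to 675, 2 to 312 and 4 to 363; leaving out KO library 1 gave 675 calls, KO library 3 gave 135, WT library 1 gave 6 and WT library 2 gave 18. The libraries share numbers but no stated origin. Deviations of same-numbered libraries from their group means correlated across genes at 0.0777 and 0.00997. With 2 WT libraries the WT deviations mirror each other, so these values cannot decide whether the numbers pair the libraries. With the number as a block (replicate block) the log2 fold change was 0.69 for Uhrf2 (edgeR, adjusted p = 0.00976), and no call among the members changed. KO library 3 has no WT library of its number, so that fit compares only KO libraries 1 and 2 with WT libraries 1 and 2. Only 2 WT libraries limit every test here. Differences within the intervals given could not be told from 0 at this number. As the intervals are not adjusted for the number of genes, larger differences could be missed too. Tet2, Tet1 and Idh1 had intervals clear of 0 and did not pass.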
